A study of Sus scrofa with 12 samples.

Results

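The gene set described here holds the enzymes that make cholesterol, the SREBP transcription factors that control them with their partners in the endoplasmic reticulum, and the fatty acid genes that the same factors switch on. It was chosen by a list of 32 gene symbols, and 27 of them were found in the platform annotation, among 13664 named genes on the array. For each gene the probe set (a group of short probes against 1 transcript) with the highest mean over all arrays was used, and 1 member, MSMO1, was found under the older symbol SC4MOL. The 5 members without a match in the annotation used here were IDI1, TM7SF2, SC5D, SCAP and FADS1. Of the 27 measured members, 26 passed the filter on dim probe sets. ELOVL6, a fatty acid elongase, did not, with a mean of 1.71 on the log2 scale against a threshold of 2.29, and was not tested.

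Gene expression was measured on Affymetrix Snowball pig arrays in jejunal mucosa, the lining of the middle small intestine, of 12 pigs aged 140 days. The 6 pigs labelled high feed efficiency are named H1 to H6 and the 6 labelled low feed efficiency L1 to L6; in both groups the first 3 were male and the other 3 female. The scoring of feed efficiency, the breed and the diet were not stated in the labels used here. All 12 arrays had similar medians (4.02 to 4.16 log2 units). Their spread differed: the array SD, taken over the probe sets of an array, was 2.14 to 2.19 log2 units in H1 to H4. It was 2.22 to 2.28 in all other pigs. What part this has in the values below was not tested. Precision is set by how many arrays there are. The tissue label was checked against 13 measured enterocyte markers. They averaged 8.53 to 10.7 log2 units in high feed efficiency pigs and at least 9.75 in each low feed efficiency pig. H1 was the lowest pig. It was also lowest for proliferating crypt (6.21) and T and cytotoxic lymphocyte markers (6.66). For goblet cell (9.94), fibroblast and matrix (9.62) and smooth muscle markers (8.54) H1 was the highest pig. The part of this in the values below was not tested. Another pair of pigs stood apart for the members themselves: H6 and L3, 1 from each group, had the lowest RNA levels of the sterol synthesis genes. The coordinated variation that rests on them is given without them as well. The mucosa is a mixture of cells, so fewer cells of a type and less RNA per cell cannot be told apart in any value below.

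As background, cholesterol is built from acetyl-CoA through mevalonate, isoprenoid diphosphates, squalene and lanosterol. When sterols in the endoplasmic reticulum are low, SCAP escorts the SREBP proteins to the Golgi, where they are cut and released to the nucleus. SREBP-2, made from SREBF2, acts mainly on sterol genes and SREBP-1, made from SREBF1, on fatty acid genes. INSIG proteins hold SCAP back when sterols are high, and INSIG1 is itself an SREBP target. The small intestine takes up dietary and biliary cholesterol and also makes its own.

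The first comparison asked whether the members differed between high and low feed efficiency, with sex as a second term. Genes of the steps from ACAT2 to DHCR7 lay mostly lower in high feed efficiency pigs. Of 5 fatty acid genes tested, 4 lay higher, but only FASN by more than its SE. None of these differences passed the test over all probe sets. Cell type markers were mixed. Lower in high feed efficiency pigs were 11 of 13 enterocyte markers (median -0.32, 2 lower at an unadjusted p of 0.05 in limma). So were 9 of 10 T and cytotoxic lymphocyte markers (median -0.19, 4 lower at that p). Proliferating crypt (11 of 15, median -0.07) and goblet cell markers (4 of 6, -0.02) were also mostly lower. Mostly higher were fibroblast and matrix (7 of 9, 0.10), adipocyte (5 of 7, 0.12) and smooth muscle markers (4 of 6, 0.02). The part of these lists in the members' differences was not tested. Of the 26 members, 17 (65.4%) had a difference below 0 (high minus low), against 51.6% of all 35791 probe sets, and their median was -0.10 log2 units, against -0.01 for all. Among the 16 genes from ACAT2 to DHCR7, 14 were below 0 (11 without H6 and 16 without L3) with a median of -0.21. That median was -0.07 without H6, -0.33 without L3, -0.14 without L1, -0.12 without L2 and -0.14 after quantile normalization. In limma, 0 of 35791 probe sets reached an adjusted p of 0.05 (0%, smallest adjusted p = 0.502). At an unadjusted p of 0.05, 2 of the 26 members were past the threshold (7.69%), which is near the 7.79% of all probe sets. These were PMVK, lower in high feed efficiency pigs (1 member, against 3.98% of all probe sets in that direction), and FASN, higher in them (1 member, against 3.81%). The count of 2 became 4 without L3 and 1 without H3, H4, L4 or L5.

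**Figure D1:**
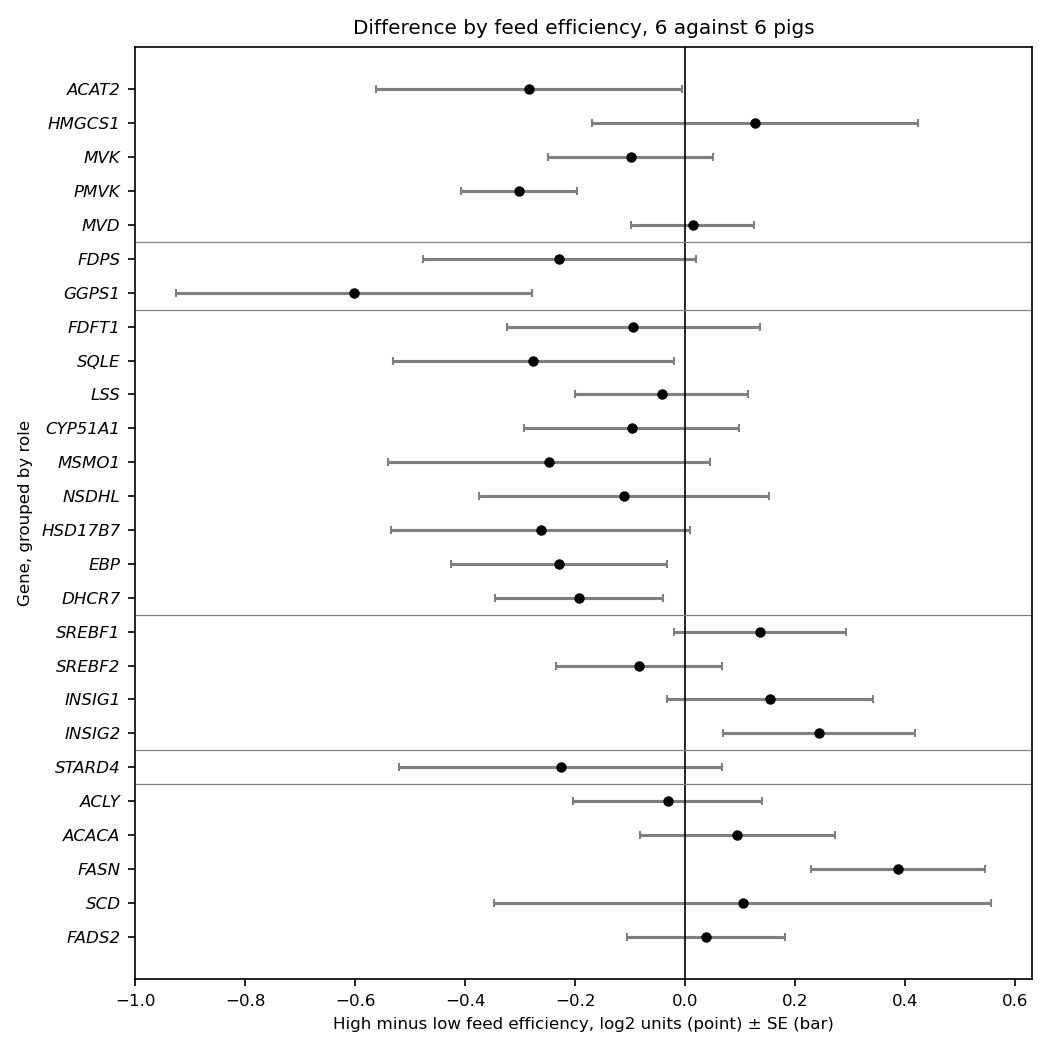
Difference between high and low feed efficiency for the 26 members tested (horizontal axis, log2 units, high minus low, points with ± SE bars from limma), grouped by role on the vertical axis. The 9 genes from squalene to cholesterol all lie below 0, as do 51.6% of all probe sets. PMVK (-0.30) and FASN (0.39) are the members farthest from 0 for their SE.

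The first steps turn acetyl-CoA into isoprenoid units. PMVK, the kinase that makes mevalonate diphosphate, ran from 5.11 to 5.404 log2 units in high feed efficiency pigs (median 5.31) and from 5.394 to 5.79 in low feed efficiency pigs (median 5.58). The groups overlapped only where the highest high feed efficiency pig, H5, met the lowest low feed efficiency pig, L3. Its difference was -0.30 (SE 0.106), or 1.23-fold lower in high feed efficiency pigs, with an unadjusted p of 0.0142 and an adjusted p of 0.621 in limma. The separation was of like size in males (-0.28) and in females (-0.32). ACAT2, the thiolase that joins acetyl-CoA units, had a difference of -0.28 (SE 0.278). HMGCS1, which makes HMG-CoA, ran from 7.82 to 9.34 in high feed efficiency pigs (median 8.72) and from 7.69 to 9.27 in low feed efficiency pigs (median 8.41). These ranges lie almost on top of each other, and the difference was 0.13 (SE 0.296). MVK, mevalonate kinase, had a difference of -0.10 (SE 0.15), and MVD, which makes isopentenyl diphosphate, one of 0.01 (SE 0.112).

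FDPS and GGPS1 make the farnesyl and geranylgeranyl diphosphates, the branch point between sterols and protein prenylation. GGPS1 ran from 4.51 to 6.83 log2 units in high feed efficiency pigs (median 5.06) and from 5.51 to 6.40 in low feed efficiency pigs (median 5.91). The high feed efficiency pigs H1 to H4 lay below every low feed efficiency pig, while H5 was the highest of all 12. The difference was -0.60 (SE 0.324), or 1.52-fold lower in high feed efficiency pigs, with an unadjusted p of 0.0876 and an adjusted p of 0.676 in limma. Without H5 it was -0.90 with an unadjusted p of 0.00159 and an adjusted p of 0.293 in limma. It was -0.38 without H4 (unadjusted p = 0.213 in limma) and -0.44 without L2 (unadjusted p = 0.198 in limma). After quantile normalization the difference was -0.63. H1 to H4 also had the lowest array SD, whose part in this value was not tested. FDPS ran from 6.76 to 7.96 in high feed efficiency pigs (median 7.57) and from 6.86 to 8.19 in low feed efficiency pigs (median 7.93), a difference of -0.23 (SE 0.249) with wide overlap.

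From squalene to cholesterol, 9 of 9 measured genes had a difference below 0, against 51.6% of all probe sets, with none at an unadjusted p of 0.05. Genes of the sterol steps varied together over the same pigs, so these signs are not independent. They spanned -0.28 for SQLE to -0.04 for LSS, with SEs of 0.153 to 0.293. SQLE, the squalene epoxidase, ran from 6.72 to 8.06 in high feed efficiency pigs (median 7.73) and from 7.17 to 8.48 in low feed efficiency pigs (median 7.85). LSS closes the first sterol ring system, lanosterol, and its groups were all but level, with ranges of 6.10 to 6.82 log2 units in high feed efficiency pigs and 6.17 to 6.85 in low feed efficiency pigs. HSD17B7 and NSDHL, which help to remove the C4 methyl groups with MSMO1, differed by -0.26 (SE 0.272) and -0.11 (SE 0.264), and MSMO1 by -0.25 (SE 0.293). CYP51A1, the lanosterol demethylase, differed by -0.10 (SE 0.195). EBP, the sterol isomerase, differed by -0.23 (SE 0.196). Another EBP probe set (mean 6.81) followed the chosen one (r = 0.97), with a difference of -0.17. A dimmer EBP probe set (mean 4.40) had a difference of -0.64 with an unadjusted p of 0.0402. This one followed the chosen one only loosely (r = 0.50), and a still dimmer one did not follow it (r = 0.08). DHCR7, the last reductase before cholesterol, differed by -0.19 (SE 0.153), with the smallest p of this group, 0.230 unadjusted. FDFT1, squalene synthase, differed by -0.09 (SE 0.23), and its 3 probe sets did not share a sign (-0.09, 0.09 and -0.15).

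Among the regulators the signs were mixed. SREBF1 had a mean of 7.02 ± 0.24 log2 units in the 6 high feed efficiency pigs against 6.88 ± 0.34 in the 6 low ones (± SD), and SREBF2 one of 8.73 ± 0.22 in the high group against 8.81 ± 0.27 in the low group. Their differences, 0.14 (SE 0.157) and -0.08 (SE 0.151), were within their SE. The other 3 SREBF1 probe sets lay just below 0 (-0.03, -0.07 and -0.01), so its sign rests on the chosen one. INSIG1 differed by 0.15 (SE 0.187). INSIG2 differed by 0.24 (SE 0.175), but its probe set is dim (mean 3.58), is of a type that can bind related sequences, and ran against the other INSIG2 probe set over the 12 pigs (r = -0.58), so its values are uncertain.

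FASN, the fatty acid synthase, ran from 9.24 to 9.99 log2 units in high feed efficiency pigs (median 9.64) against 8.79 to 9.505 in low feed efficiency pigs (median 9.34). H1 to H4 lay above every low feed efficiency pig, and H5 and H6 lay within the other group's range. The difference was 0.39 (SE 0.158), or 1.31-fold higher in high feed efficiency pigs, with an unadjusted p of 0.0301 and an adjusted p of 0.630 in limma. It was positive in males (0.33) and in females (0.44), and the other FASN probe sets gave 0.24 and 0.35 with larger SEs. After quantile normalization the difference was 0.53 (unadjusted p = 0.0128, adjusted p = 0.643 in limma). With the mean of all FASN probe sets it was 0.33 (unadjusted p = 0.0817 in limma). H1 to H4 also had the lowest array SD, whose part in this value was not tested. The remaining fatty acid genes lay near 0. ACACA, the carboxylase that makes malonyl-CoA, differed by 0.10 (SE 0.177), ACLY, which supplies cytosolic acetyl-CoA, by -0.03 (SE 0.172), and FADS2, a desaturase with a dim probe set (mean 3.70), by 0.04 (SE 0.144). SCD, the stearoyl-CoA desaturase, varied most of all members, over a 7.39-fold range between H6 (4.56) and L2 (7.45), and its group difference was 0.10 (SE 0.452). ELOVL6, below the filter, ran from 1.56 to 2.33 in high feed efficiency pigs and from 1.25 to 1.89 in low feed efficiency pigs.

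STARD4, a cytosolic sterol carrier, ran from 5.09 to 6.66 log2 units in high feed efficiency pigs (median 6.60) and from 5.83 to 7.07 in low feed efficiency pigs (median 6.47). H1 was far below the rest, and it was also the pig with the lowest enterocyte markers, whose part in this value was not tested. The difference was -0.23 (SE 0.294), and 0.06 without H1.

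**Figure D2:**
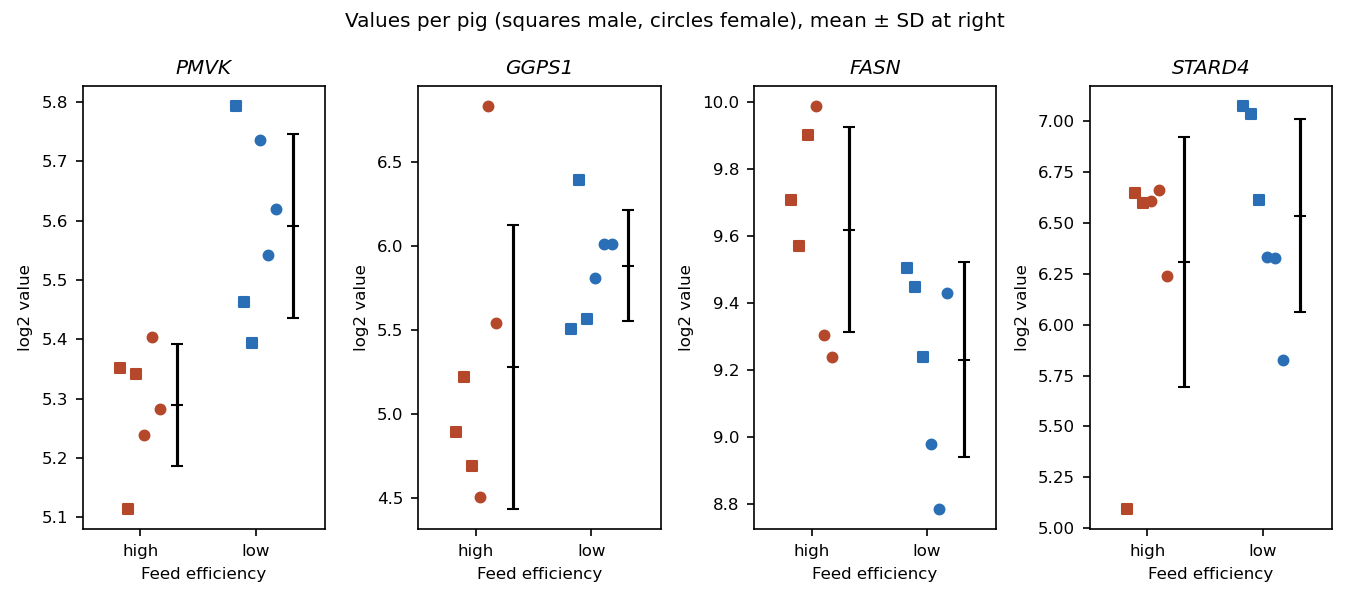
Log2 values of PMVK, GGPS1, FASN and STARD4 in each pig (vertical axes), high feed efficiency left and low right, squares male and circles female, with mean ± SD (n = 6) beside each group. The PMVK groups touch only at 5.404 against 5.394, GGPS1 has 1 high feed efficiency pig at 6.83 above all others, and STARD4 has 1 at 5.09 below all others.

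Sex was balanced over the groups and was tested in the same model. None of the 26 members reached an unadjusted p of 0.05 (0%, against 9.26% of all probe sets, of which 6, or 0.0168%, passed at an adjusted p of 0.05). The largest size was that of SCD, 0.72 higher in males than in females (SE 0.452). Whether the feed efficiency difference depended on sex was tested as an interaction, male difference minus female difference, where 0 probe sets passed at an adjusted p of 0.05 (6.69% at an unadjusted p of 0.05). STARD4 was the single member past an unadjusted p of 0.05 (3.85% of 26), with -0.79 in males and 0.34 in females, an interaction of -1.13 (SE 0.512), unadjusted p of 0.0487 and adjusted p of 0.744. Without H1 that interaction was -0.62, no longer past the threshold, and with array weights it was -0.66. The count of members past the threshold was 0 as well without H5, L1, L4, L5 or L6, 2 without H4 and 3 without L2. STARD4 was not among those counted without H4 or L2 (unadjusted p of 0.0847 and 0.0873 in limma). It was not past the threshold after quantile normalization (0.0635) or with array weights (0.138) either.

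The second question was whether the members varied together over the 12 pigs, whatever the group. Their pairs had higher correlations than pairs of all genes. Over all 325 pairs of members the median Pearson r was 0.33, and over the 120 pairs from ACAT2 to DHCR7 it was 0.48, with 58 of these (48.3%) above 0.5. Over the 79109331 pairs of named genes tested the median was 0.007, and 9.75% were above 0.5. These correlations are descriptions over the same 12 arrays. After the mean of each combination of feed efficiency and sex was subtracted, the medians were 0.39 and 0.54.

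**Figure D3:**
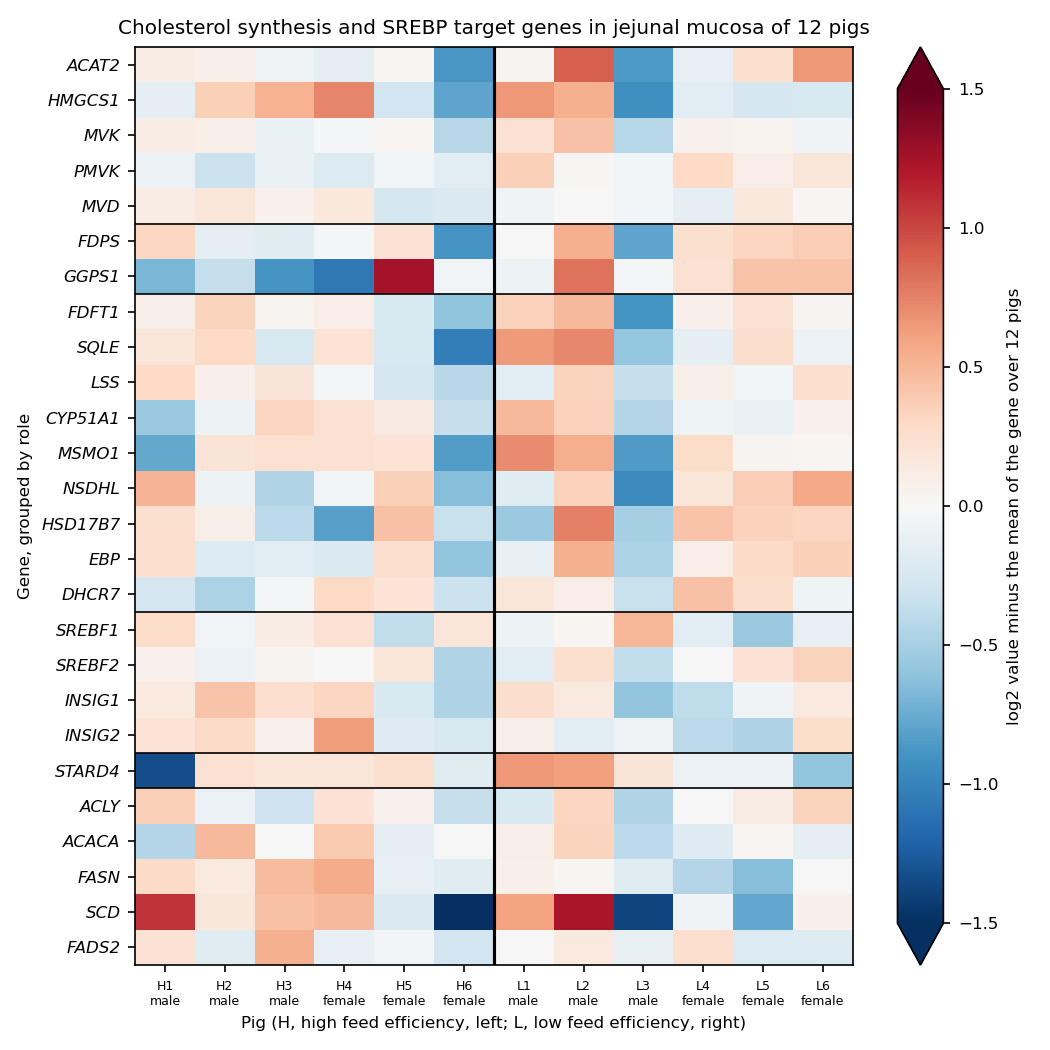
Log2 value minus the gene's own mean (colour) for the 26 members tested (rows, grouped by role) in the 12 pigs (columns, high feed efficiency left of the line, low right). H6 and L3 are below the mean for all 16 genes from ACAT2 to DHCR7, and L2 is above it for all 16.

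In this shared pattern 3 pigs stood out. The RNA level of the sterol genes in a pig, called its sterol synthesis level, was summarised as the mean z-score of the 16 genes from ACAT2 to DHCR7. Synthesis itself was not measured. H6 had -1.36 and L3 had -1.29, with 0 of 16 genes above their own mean in either pig, and on average these genes stood at 0.692-fold of their mean in both. L2 had 1.08, with 16 of 16 genes above their mean at 1.38-fold on average. The other 9 pigs lay between -0.11 and 0.44. The low pigs came 1 from each group and were of different sex. H6 and L3 also had the highest T and cytotoxic lymphocyte markers (7.57 and 7.50 log2 units over 10 markers, others 6.66 to 7.44), and H6 had the highest adipocyte markers (6.10 over 7 markers, others up to 5.91), while their enterocyte markers (10.5 and 10.8) lay inside the range of the rest. L2 had the highest proliferating crypt markers (6.78 over 15 markers, others 6.21 to 6.57). Array SD went with the sterol synthesis level by rank (rho = 0.62) and less so by Pearson r (0.21). The part of these in the result was not tested. Without H6 and L3, a setting chosen after the data were seen, the median r was 0.072 over all members and 0.19 within ACAT2 to DHCR7, with 21.7% of pairs above 0.5 against 12.1% of all pairs of genes.

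The members did not take equal part. Each gene was set against the mean of the other steps, and its rank was taken among the named genes tested with the other sterol steps left out. FDPS (r = 0.93), ACAT2 (0.92), MVK (0.91) and FDFT1 (0.87) each ranked first among the genes outside the steps, EBP (0.84) ranked 3 and SQLE (0.82) ranked 5. In the 10 pigs without H6 and L3 these were 0.71 for FDPS, 0.78 for ACAT2, 0.71 for MVK, 0.51 for FDFT1, 0.65 for EBP and 0.51 for SQLE. SREBF2, the factor itself, had r = 0.84 and ranked 4, and 0.46 in the 10 pigs. Of its other probe sets, a pair followed the chosen one (r = 0.91 and 0.84) and one did not (0.12). At the other end, PMVK (0.36), GGPS1 (0.22), MVD (0.21), STARD4 (0.14), FASN (0.03) and INSIG2 (0.01) had low r, as did FADS2 (0.28) and ACACA (0.34). In the 10 pigs GGPS1 had 0.49, PMVK 0.34, STARD4 0.31, MVD -0.34, FASN -0.44 and INSIG2 -0.43. By rank over 12 pigs PMVK (rho = 0.69) was level with SQLE (0.67). SREBF1 ran the opposite way, with r = -0.58 over 12 pigs and -0.27 over the 10. It was highest in L3 (7.45) and lowest in L5 (6.39), and its other probe sets followed it only in part (r = 0.29 to 0.65).

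Inside the sterol steps the pairs fell into 2 strands, picked out after their values were seen. One held FDPS, EBP and NSDHL, and with them ACLY and SREBF2: r was 0.95 for FDPS and EBP, 0.93 for FDPS and NSDHL, 0.92 for NSDHL and ACLY and 0.92 for EBP and SREBF2, and these were 0.97, 0.88, 0.86 and 0.82 in the 10 pigs. The other held HMGCS1, CYP51A1 and MSMO1 with INSIG1: r was 0.92 for CYP51A1 and MSMO1 (0.90 in the 10 pigs) and 0.86 for HMGCS1 and INSIG1 (0.70 in the 10 pigs). FDFT1 and SQLE followed each other closely (0.89 in 12 pigs and in the 10) and lay between. Across the strands, HMGCS1 and NSDHL had r = 0.25 over 12 pigs but -0.73 over the 10, and HMGCS1 and EBP had 0.24 and -0.56. Genes of both strands were low in H6 and L3, and in the other 10 pigs these pairs ran in opposite directions. Single genes of the strands also differed in how they went with cell type markers. NSDHL and EBP had r = -0.60 and -0.51 with the enterocyte marker level and 0.72 and 0.67 with that of goblet cells. In the other strand MSMO1 had 0.39 with enterocyte and -0.26 with goblet cell markers, and HMGCS1 had 0.15 and -0.27. In the 10 pigs MSMO1 had r = 0.90 with enterocyte markers, HMGCS1 0.51 and STARD4, which is in neither strand, 0.89. Without H1 and L6 instead, the pigs farthest out on these markers, and with H6 and L3 kept, they had -0.08, 0.08 and 0.20. These settings leave out different pigs, so they cannot show which pigs the relations rest on. For NSDHL and EBP, r with enterocyte markers was -0.59 and -0.61 without H1 and L6. What part the cell types have in the strands was not tested.

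HMGCS1, whose gene is a classic SREBP-2 target, was used as an anchor: each probe set was fitted in limma on the HMGCS1 level with feed efficiency and sex as further terms. HMGCS1 itself had r = 0.59 with the mean of the other steps (rho = 0.25, rank 270). In the 10 pigs without H6 and L3 it had -0.12. Of the other 25 members, 10 (40%) had a positive slope at an unadjusted p of 0.05, against 2.40% of all 35789 probe sets, and 0 had a negative one (2.32% of all). No probe set passed at an adjusted p of 0.05 (smallest 0.957). MSMO1 had the smallest p among the members, with a slope of 0.88 log2 units per log2 unit of HMGCS1 (SE 0.158, unadjusted p = 0.000154). SCD had the steepest slope, 1.22 (SE 0.305). The other 8 were SQLE (0.70), FDFT1 (0.63), ACAT2 (0.57), CYP51A1 (0.52), INSIG1 (0.50), ACACA (0.39), MVK (0.32) and DHCR7 (0.32). GGPS1 had a slope of -0.27 (SE 0.329). Without L3 the count was 5 of 25. Without H6 and L3, plain r with HMGCS1 was -0.08 for ACAT2, -0.05 for DHCR7 and 0.29 for MVK. For the other members with such a slope it ran from 0.52 (SQLE) to 0.71 (ACACA). A weaker HMGCS1 probe set (mean 3.23) did not follow the chosen one (r = 0.01).

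**Figure D4:**
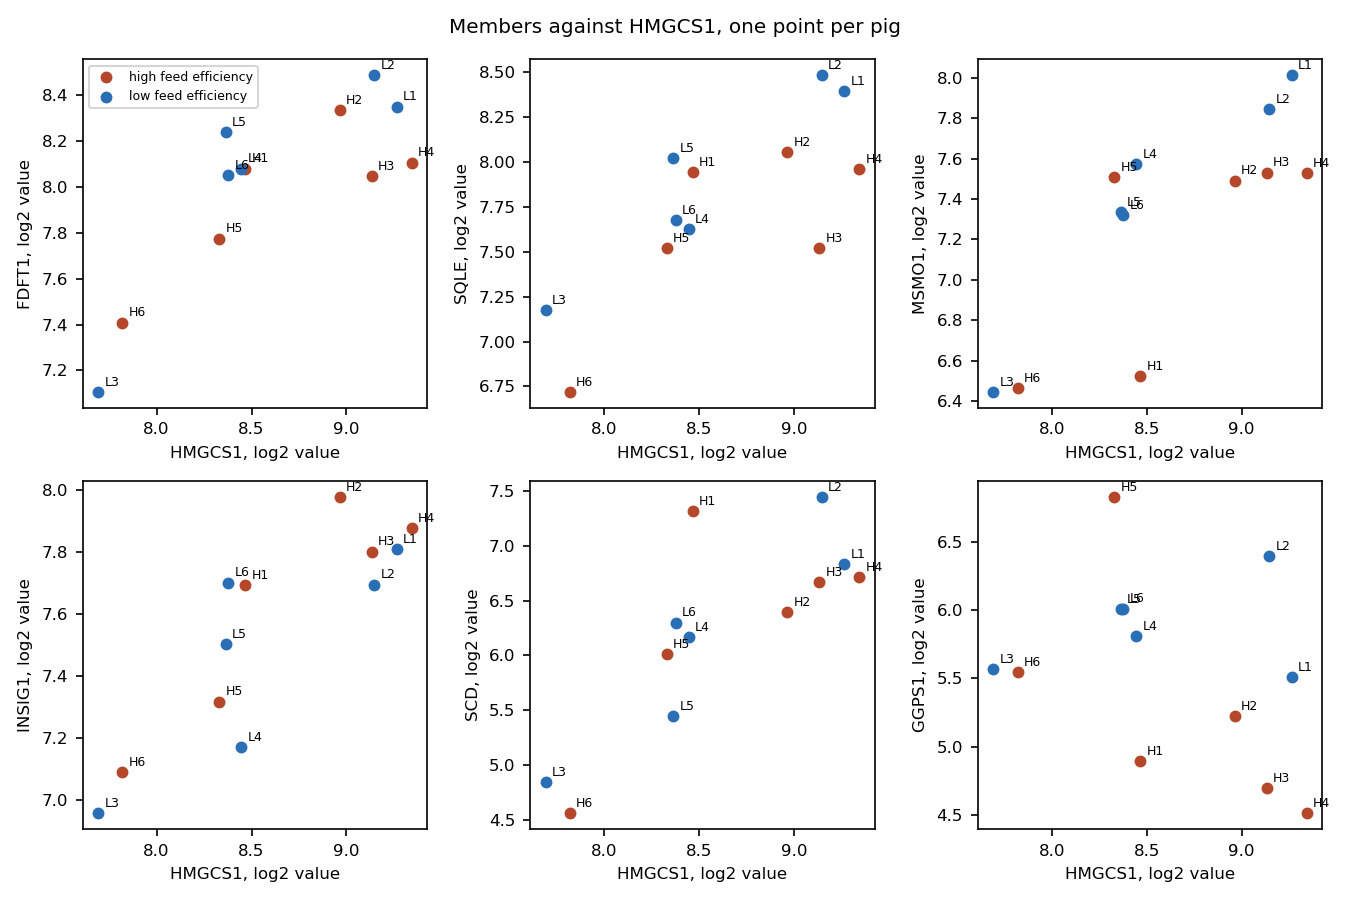
Log2 values of FDFT1, SQLE, MSMO1, INSIG1, SCD and GGPS1 (vertical axes) against HMGCS1 (horizontal axis), 1 point per pig, high feed efficiency in red and low in blue. H6 and L3 sit at the lower left for 5 of these genes, and GGPS1 has no such slope (r = -0.34).

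In plain correlations over the 12 pigs, HMGCS1 had r = 0.86 with INSIG1 (rho = 0.83, permutation p = 0.00035 and 0.0013), 0.80 with SCD (rho = 0.87, permutation p = 0.0014 and 0.00052) and 0.81 with FDFT1 (rho = 0.74, permutation p = 0.00083 and 0.0079). Without H4 and L1, the pigs farthest from the median HMGCS1 level, they were 0.84, 0.82 and 0.85. Without H6 and L3 they were 0.70, 0.56 and 0.54. These are 3 of 25 relations computed with HMGCS1, and the slopes of all 3 had an adjusted p of 0.957 over all probe sets.

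FASN as an anchor gave fewer followers. Of 25 members, 3 (12%) had a positive slope at an unadjusted p of 0.05, against 2.67% of all 35788 probe sets, and again no probe set passed at an adjusted p of 0.05. They were HMGCS1 (slope 1.35, SE 0.519), SCD (1.95, SE 0.815) and the uncertain INSIG2 probe set (0.97, SE 0.257). The count was 0 without H4 and 1 without H6. Of the lipogenic enzymes, SCD had r = 0.58 with FASN, ACACA 0.30 and ACLY 0.11 by the chosen probe sets, and the median over the 10 pairs of fatty acid genes was 0.29. This depends on the probe set: another for ACACA had r = 0.81 with FASN and another for ACLY had 0.58. By its chosen probe set ACLY went with the sterol steps (r = 0.71 with their mean, rank 45) and so did SCD (0.76, rank 20), and in the 10 pigs these were 0.38 for ACLY and 0.20 for SCD. SREBF1 had r = 0.54 with FASN over 12 pigs, 0.87 over the 10 and 0.19 without H4 and L5, the pigs farthest out on FASN, and its other probe sets had r = -0.19, -0.19 and 0.23 with FASN. GGPS1 ran against FASN (r = -0.67 over 12 pigs, -0.70 over the 10) and against SREBF1 (-0.59 and -0.73).

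LXR is the receptor that senses surplus sterol and switches on export genes. The list set beside the sterol steps held LXR and RXR receptor genes as well as LXR targets. The mean of 11 measured LXR genes had r = -0.75 with the sterol synthesis level (rho = -0.55). It was highest in L3 (7.43 log2 units) and H6 (7.35), the pigs with the lowest mean z-score of the sterol genes, and lowest in H2 (6.91) and L2 (6.92). Without H6 and L3 it was -0.43. Of the 11, ABCA1, which exports cholesterol from cells, followed most closely, with r = -0.85 (rho = -0.82) over 12 pigs and -0.71 over the 10. Its values were 6.43, 6.16, 5.89, 6.32, 6.01 and 6.75 log2 units in H1 to H6 and 5.96, 5.55, 6.58, 5.996, 5.46 and 5.60 in L1 to L6. MYLIP, an LXR-induced ubiquitin ligase, had r = -0.72 (-0.65 over the 10). ABCA1 also went with SREBF1, itself an LXR target in mice (r = 0.72, and 0.63 over the 10). Not all LXR genes did so: LPCAT3 had r = 0.34 and ABCG8 -0.20 with the sterol synthesis level. By group, the mean of ABCA1 was 6.26 ± 0.31 for H1 to H6 and 5.86 ± 0.42 for L1 to L6 (± SD, 6 pigs each), with an unadjusted p of 0.0756 and an adjusted p of 0.665 in limma.

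**Figure D5:**
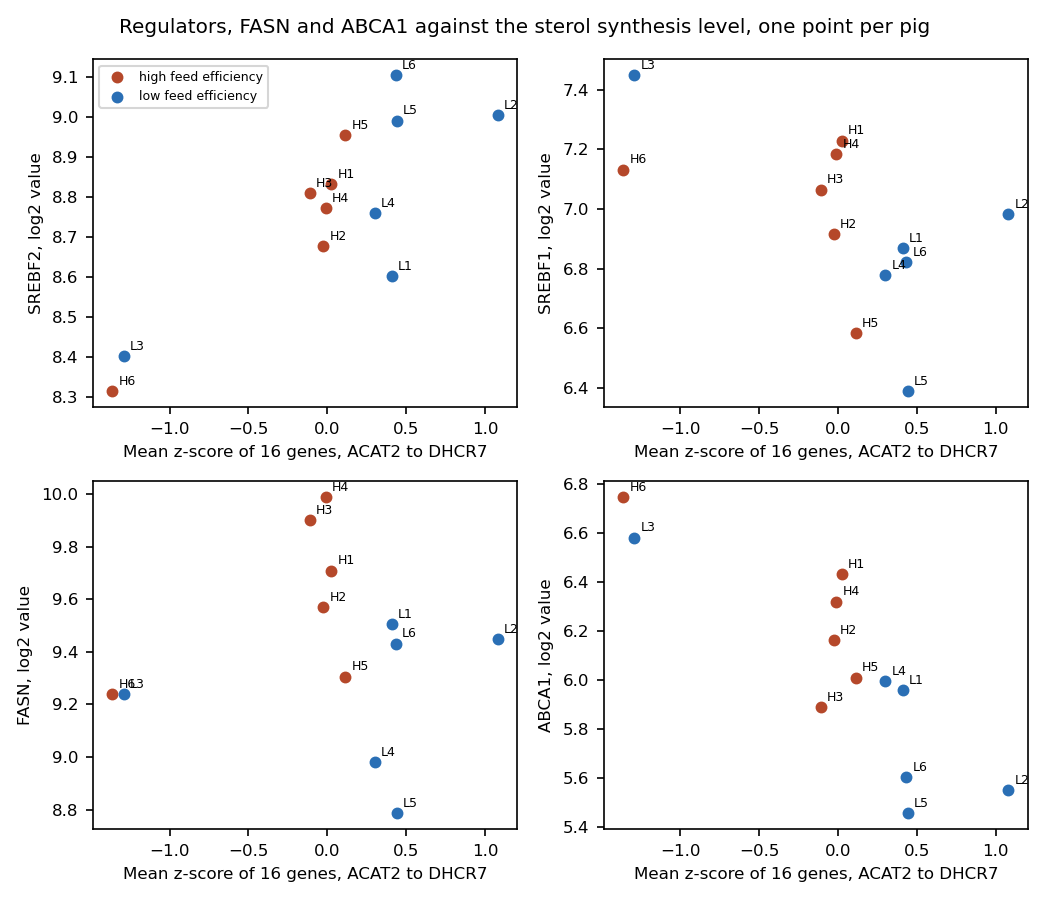
Log2 values of SREBF2, SREBF1, FASN and ABCA1 (vertical axes) against the mean z-score of the 16 genes from ACAT2 to DHCR7 (horizontal axis), 1 point per pig, high feed efficiency in red and low in blue. SREBF2 is lowest in H6 and L3, ABCA1 is highest in them, and FASN shows no slope (r = 0.03).

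The 10 genes outside the set most like the sterol synthesis level, by Pearson r over 12 pigs, were MPV17 (0.87), RASD1 (0.84), PANK1 (0.84), TLX3 (0.83), MMAB (0.81), SYNGR4 (0.80), KLHL10 (0.79), RANBP1 (0.79), SLC26A9 (0.78) and SLC2A6 (0.78). In the 10 pigs without H6 and L3 they ran from 0.36 for PANK1 to 0.80 for SLC26A9. MMAB, a cobalamin adenosyltransferase gene, is the neighbour of MVK in the RefSeq gene order of assembly Sscrofa11.1. TLX3, SYNGR4, KLHL10 and SLC26A9 were dim, none above 4.22 log2 units in any pig.

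Other genes of sterol and lipid handling were read from 5 lists, and 0 of their measured members passed at an adjusted p of 0.05 for feed efficiency. Their counts at an unadjusted p of 0.05 stand against 3.98% of all probe sets lower and 3.81% higher in high feed efficiency pigs, and a single gene in a list of this size is near that share. At an unadjusted p of 0.05, none of 16 genes of SREBP cleavage and turnover was past the threshold. Of the 11 LXR genes, 1 was lower in high feed efficiency pigs, ABCG8 (-0.51, SE 0.182), an apical sterol exporter, and 1 was higher, PLTP (0.44, SE 0.19), the phospholipid transfer protein. Of 16 genes of sterol esterification and movement, 4 were lower and 0 higher, led by NPC1 (-0.38, SE 0.142), which moves cholesterol out of lysosomes, CAV1 (-0.39, SE 0.158), which coats caveolae, and GRAMD1B (-0.24, SE 0.105), which carries sterol from the plasma membrane to the endoplasmic reticulum. Of 14 genes of the isoprenoid branch, 1 was lower, PDSS1 (-0.29, SE 0.109), which makes the side chain of ubiquinone. The mean of this list went with the sterol synthesis level (r = 0.89, and 0.68 over the 10 pigs). Of 17 other fatty acid synthesis genes, 2 were lower, ELOVL1 (-0.40, SE 0.139), an elongase of long chains, and SLC25A1 (-0.28, SE 0.112), the mitochondrial citrate carrier, and 1 was higher, ACSL1 (0.24, SE 0.112), which activates fatty acids.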

How the data were processed

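The values used are log2 signals, 1 for each probe set on each array, as deposited by the authors. GCOS 1.1.1 is named per the submitters' processing notes; how background, summarization and normalization were handled is not stated there. Control probe sets (123 of 47845) were left out. A filter kept the 35791 probe sets whose mean over 12 arrays exceeded 2.29 log2 units, the 25th percentile of such means. Genes were named from the platform annotation, with symbols updated through the RefSeq gene table of Sscrofa11.1 where these differed; 21296 probe sets are unnamed here. Linear models came from limma 3.58.1 under R 4.3.3 (feed efficiency and sex as additive terms, or the 4 means for the interaction), with Benjamini-Hochberg adjustment over all probe sets tested. The fits were tested on simulated data. Each array is 1 pig, and no depth exists for arrays. The members and lists were chosen with earlier results of these data known. Named genes are all members, the 10 other genes most like the sterol synthesis level, and up to 3 genes per pathway list at an unadjusted p of 0.05. ABCA1, MYLIP and LPCAT3 were named after their values were seen. Permutation p-values are two-sided. Alternatives left out each pig, and changed the filter, normalization, weights, probe sets, terms and anchor gene.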

Additional observations from a re-analysis of the deposited data

Results flagged for a closer look

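In 3 of 54 groups of 6 pigs, 1 pig lay far from the others; chance gives about 1 in 20 groups. ACAT2 in high feed efficiency pigs was lowest in H6, at 6.36 log2 units, with the nearest pig at 7.10. FDFT1 in low feed efficiency pigs was lowest in L3, at 7.11, with the nearest at 8.05. STARD4 in high feed efficiency pigs was lowest in H1, at 5.09, with the nearest at 6.24.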

How the results depend on the processing

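No paired analysis was possible because the labels pair no pigs across the groups. No probe set passed at an adjusted p of 0.05 for feed efficiency, the interaction or the slope on HMGCS1 under any alternative tried. The slope on FASN had 0 or 1 when 1 pig was left out. The members past an unadjusted p of 0.05 for feed efficiency numbered 1 with the mean of all probe sets of a gene, and 1 to 4 when 1 pig was left out. Members below 0 numbered 12 (without H6) to 21 (without L3), and 14 after quantile normalization. Members with a positive slope on HMGCS1 numbered 5 to 13 when 1 pig was left out. Those with a positive slope on FASN numbered 0 to 4, and 13 with SCD as the anchor. The median r within ACAT2 to DHCR7 was 0.38 by Spearman correlation and 0.38 to 0.54 when 1 pig was left out; without H6 and L3 it was 0.19, and 0.072 over all members. Causes were not tested. Of 442 feed efficiency values of single members under alternatives, 29 changed sign, none of them past the threshold, and 15 members never changed sign.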
